A study of Mus musculus with 6 samples.

Results

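A set of 10 imprinted genes linked to fat growth was followed at gene and transcript level in epididymal white fat of the mouse, the pad that lies along the epididymis. The members were taken by gene symbol (GENCODE M21 names), not by a cut on their counts, and are Mest, Peg3, Plagl1, Cdkn1c, Dlk1, Sgce, Nnat, Grb10, Ndn and Igf2. All 10 had reads, out of 23492 genes with at least 1 read, and they accounted for 47 of the 61729 transcripts with reads. The series, whose title concerns the mouse brown fat transcriptome, holds for this white depot 6 libraries of direct cDNA read on a Nanopore device, 1 per mouse. The cold group was made up of mice 7, 12 and 16, wild-type C57BL/6N males of 20 weeks of age that were kept alone at 4 °C for 24 h. The ctrl group was made up of mice 5, 6 and 10 of the same genotype, sex, strain and age. Mice were otherwise kept at 22 to 24 °C. Whether ctrl mice, too, were kept alone is not in the labels.

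An imprinted gene is transcribed mainly or only from the copy inherited from 1 parent. Which copy this is usually goes back to DNA methylation set in the egg or sperm. Many imprinted genes act on growth before and after birth: in mice, paternally expressed ones such as Igf2, Mest, Peg3 and Dlk1 generally favour growth or hold back differentiation, and maternally expressed ones such as Cdkn1c and Grb10 generally restrain growth. In white fat, several of them are known from preadipocytes, the progenitors of fat cells, and Mest in mice is known as a marker of fat pads that expand on a rich diet. The counts hold no information on the parental copy, so only total transcript levels were compared.

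For a few of the genes the position of transcript starts matters to the results, and the RefSeq windows around those starts (GRCm38.p6, 250 bases before to 50 after the start) are shown for that reason. RefSeq windows were matched by symbol for 8 of the 10 genes, 14 windows in all, and none was matched for Cdkn1c and Sgce. The Mest windows lie on the plus strand at chr6:30733256-30733555 (upstream start, used by transcript Mest-210) and chr6:30737800-30738099 (downstream start, used by Mest-211 and Mest-202). The Grb10 windows lie on the minus strand at chr11:12037371-12037670 (upstream start, Grb10-201) and chr11:12027922-12028221 (downstream start, Grb10-203). The Nnat window lies on the plus strand at chr2:157559828-157560127, and 7 of the 10 Nnat transcripts begin within 50 bases of its start, 157560078. Nnat-201 and Nnat-204 begin just beyond that limit, at 157560130 and 157560140, and Nnat-203 begins at 157561009. Capitals mark CG dinucleotides, the site of DNA methylation.
Mest upstream start: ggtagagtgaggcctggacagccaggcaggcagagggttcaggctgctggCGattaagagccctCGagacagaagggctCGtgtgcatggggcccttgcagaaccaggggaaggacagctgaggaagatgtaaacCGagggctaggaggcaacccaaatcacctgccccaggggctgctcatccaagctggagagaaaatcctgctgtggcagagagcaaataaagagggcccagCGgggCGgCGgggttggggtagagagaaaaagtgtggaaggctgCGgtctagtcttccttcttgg
Mest downstream start: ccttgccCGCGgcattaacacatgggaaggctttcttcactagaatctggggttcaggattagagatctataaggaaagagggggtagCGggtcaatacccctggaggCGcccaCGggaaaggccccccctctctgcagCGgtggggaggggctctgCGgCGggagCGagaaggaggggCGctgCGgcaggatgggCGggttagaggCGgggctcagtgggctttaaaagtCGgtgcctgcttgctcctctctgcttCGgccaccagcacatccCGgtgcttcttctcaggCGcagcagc
Grb10 upstream start: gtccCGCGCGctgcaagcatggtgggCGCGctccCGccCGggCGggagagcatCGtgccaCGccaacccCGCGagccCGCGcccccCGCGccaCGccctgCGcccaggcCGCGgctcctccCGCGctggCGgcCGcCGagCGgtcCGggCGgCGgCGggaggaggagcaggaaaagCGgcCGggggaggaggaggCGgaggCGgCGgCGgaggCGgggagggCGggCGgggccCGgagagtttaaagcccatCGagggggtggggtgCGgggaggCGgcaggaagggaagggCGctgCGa
Grb10 downstream start: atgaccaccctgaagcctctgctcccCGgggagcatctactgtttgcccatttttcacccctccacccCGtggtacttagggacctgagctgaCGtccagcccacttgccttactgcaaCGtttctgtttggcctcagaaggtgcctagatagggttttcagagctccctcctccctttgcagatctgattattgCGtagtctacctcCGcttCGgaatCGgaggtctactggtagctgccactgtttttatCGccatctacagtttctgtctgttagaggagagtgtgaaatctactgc
Nnat main start: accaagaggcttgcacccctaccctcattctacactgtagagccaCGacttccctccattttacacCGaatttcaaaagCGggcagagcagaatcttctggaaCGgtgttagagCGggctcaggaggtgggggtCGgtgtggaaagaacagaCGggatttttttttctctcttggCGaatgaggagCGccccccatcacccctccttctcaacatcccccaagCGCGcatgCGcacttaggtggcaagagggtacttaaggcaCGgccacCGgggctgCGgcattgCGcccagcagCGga

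These windows differ widely in CG content. The upstream Grb10 window holds 45 CG dinucleotides, more than 98.1% of the 32851 RefSeq windows of the same length, whose median is 7 with quartiles of 3 and 20. The downstream Grb10 window holds 9. The downstream Mest window holds 17 and the upstream one 8, and the Nnat window holds 17. Among the 14 windows of the genes, the sequence GGGGCCCC, bound by PLAGL1 and equal to its own reverse complement, was found only in that of Peg3, against 1.08% of all windows. CGCCATNTT, a core sequence bound by YY1, and TATAAA, the TATA box, each searched on both strands, were in none of the 14, against 2.38% and 13.6% of all windows. A match of letters is not a bound site, and its lack says nothing about the factor.

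No gene of the 10 changed past the threshold after 24 h in the cold. Genes were tested on counts with edgeR's quasi-likelihood F test and Benjamini-Hochberg adjustment over all 9772 genes that passed its filter on low counts, with a threshold of 0.05. Adjusted p below always refers to that test, or to the same test over all 12325 transcripts that passed. Across all genes tested, 64, or 0.655%, were called, of which 53 (0.542%) were higher and 11 (0.113%) lower in cold mice. Of the 10 imprinted genes 8 were tested, Dlk1 and Igf2 having too few reads, and 0 were past the threshold. With DESeq2 and with limma-voom 0 of them were past it too, and 0 had an unadjusted edgeR p under 0.05, against 8.43% of all genes. In no gene of the 10 did the groups separate, that is, all 3 cold mice lie on one side of all 3 ctrl mice, against 13.7% of all genes tested (5.96% with cold mice higher and 7.7% with cold mice lower). Log2 fold changes, cold minus ctrl, were above 0 for 3 and below 0 for 5 of the tested members, with a median of -0.08, against 0.01 over all genes. Their standard errors (SE) of 0.16 to 0.31 show the size of change that these samples could resolve, and missing the threshold does not show that the groups are alike.

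**Figure D1:**
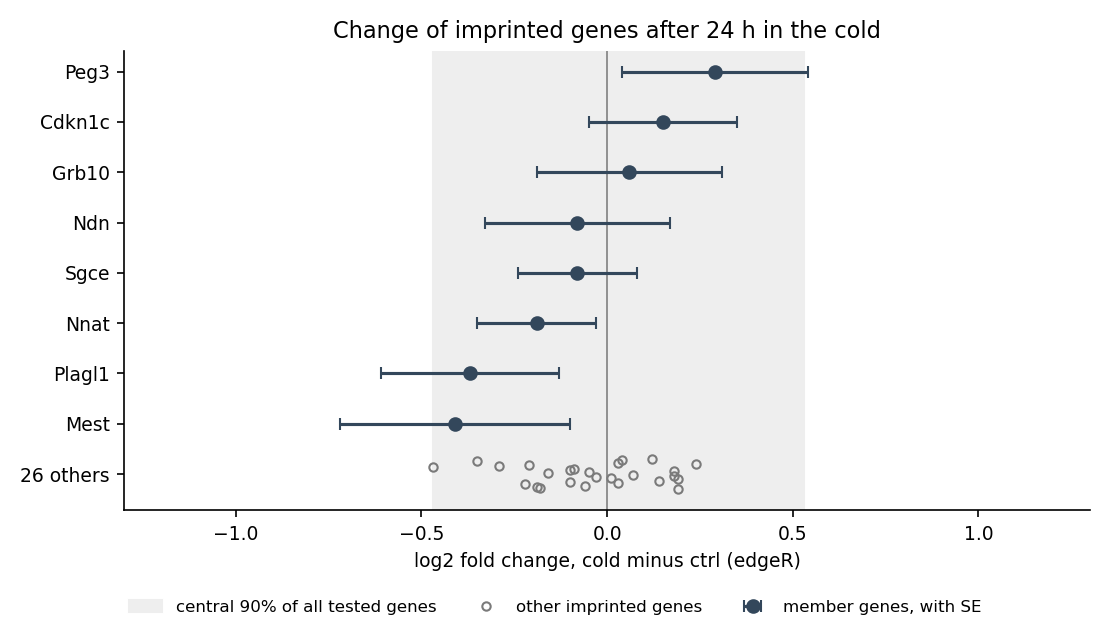
Log2 fold change of expression, cold minus ctrl, for the 8 imprinted genes tested (filled points, bars are SE) and for 26 other imprinted genes (open points), with the central 90% of all tested genes shaded. The fold changes of the 8 genes lie between -0.41 for Mest and 0.29 for Peg3, inside the shaded range of -0.47 to 0.53.

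Levels are given as CPM, counts scaled to a fixed total, of the reads assigned to genes in a library, and as CPM of all reads for transcripts. In the shallowest library, cold 7, 1 read is worth 1.38 CPM, and in the deepest, ctrl 6, 0.747 CPM. In this assay a read stands for a cDNA molecule and was not scaled by transcript length, so levels of different genes are not ranked against each other. In whole tissue, fewer cells of a type and less RNA per cell cannot be told apart.

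**Figure D2:**
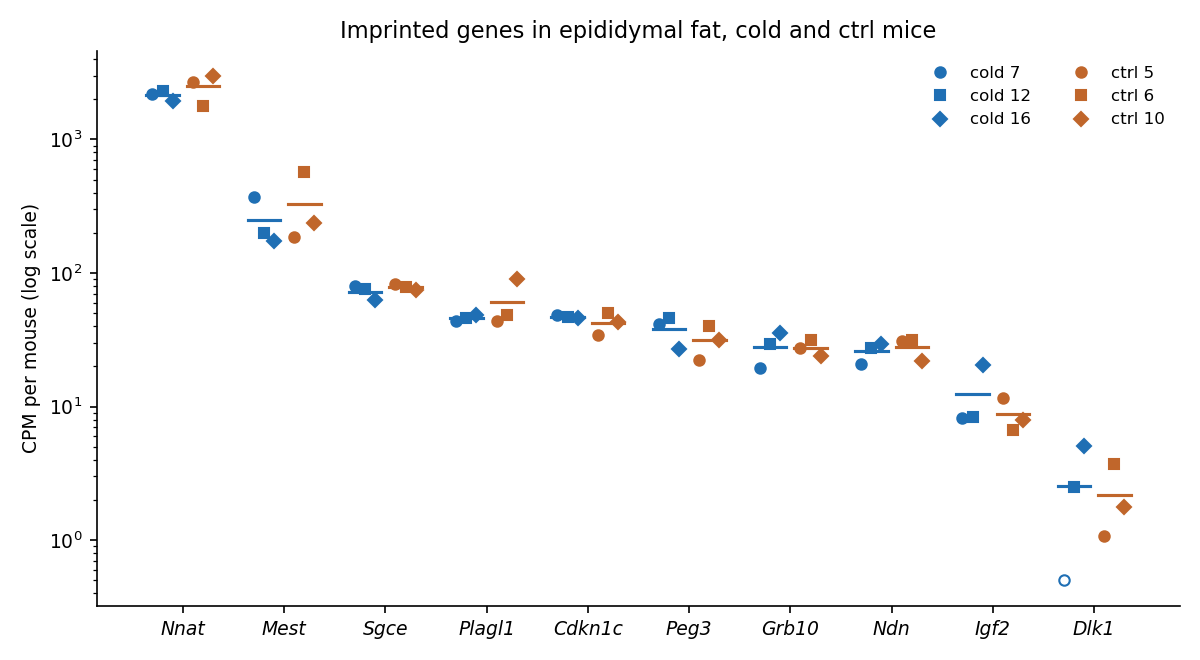
CPM of the 10 genes in every mouse on a log scale, cold mice to the left of ctrl mice, with a line at each group mean; the open point marks cold 7, in which Dlk1 had 0 reads. The groups overlap for all 10 genes, and the widest gap between single mice of a group in a gene well above the counting limit is that of Mest, with 567 CPM in ctrl 6 and 187 CPM in ctrl 5.

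Mest (chr6:30723547-30748465, plus strand) encodes a protein of the alpha/beta hydrolase fold that sits in the endoplasmic reticulum. It had 371 CPM in cold 7, 200.4 CPM in cold 12 and 174 CPM in cold 16, against 187 CPM in ctrl 5, 567 CPM in ctrl 6 and 235 CPM in ctrl 10. Cold 7 and ctrl 6 stood above the other mice of their groups, and the groups overlapped over most of their range. The mean was 248 ± 107 CPM in cold mice and 329.6 ± 207 CPM in ctrl mice (SD, n = 3 each). The log2 fold change was -0.41 ± 0.31 (SE), with an adjusted p of 0.816. Without ctrl 6 it was 0.24 (adjusted p = 0.903), and without cold 7 it was -0.82 (adjusted p = 0.190), so the sign rested on ctrl 6.

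The spread of Mest between mice of the same group was larger than that of nearly all genes of like level. Its coefficient of variation (CV, the SD as a share of the mean) was 43.1% among cold mice and 62.9% among ctrl mice. Of the 409 tested genes whose mean in ctrl mice lay within 1.5-fold of that of Mest, 99.0% had a lower CV among cold mice, where their median was 10.6%. Among ctrl mice 99.5% of them had a lower CV, with a median of 8.68%. The highest ctrl mouse held 3.04 times the Mest level of the lowest, against 2.06 times for Plagl1, 1.80 for Peg3, 1.67 for Nnat, 1.47 for Cdkn1c, 1.42 for Ndn, 1.32 for Grb10 and 1.11 for Sgce. Each mouse gave at least 136 Mest reads. These CVs are descriptions over 3 mice a group and were not tested.

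**Figure D3:**
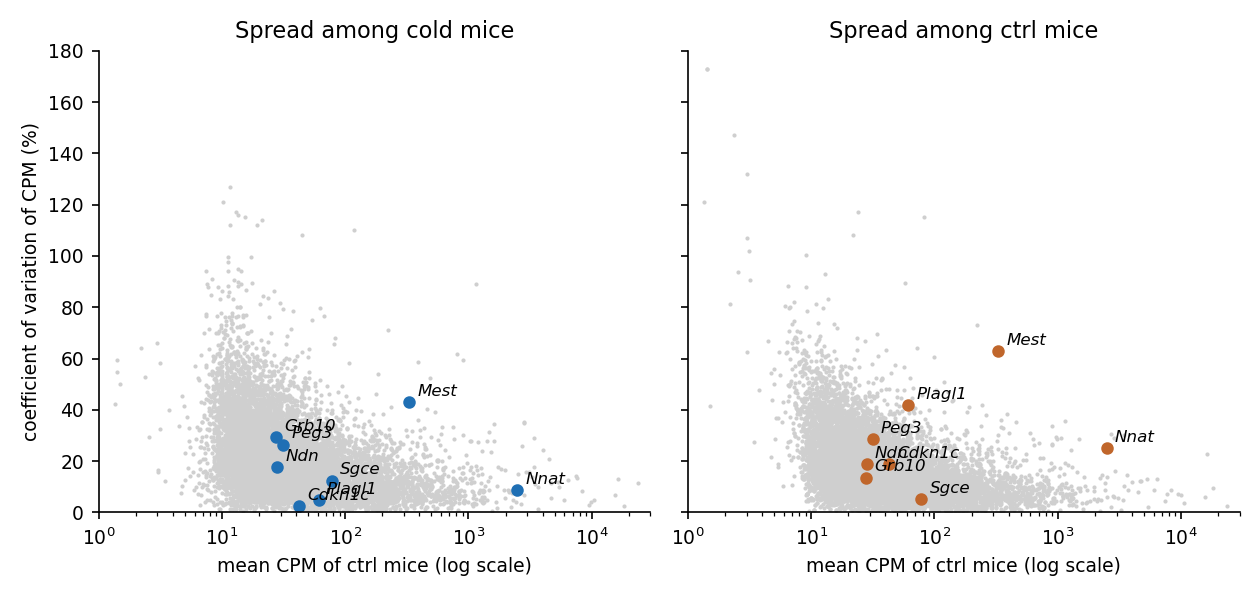
CV of CPM among the 3 cold mice (left) and the 3 ctrl mice (right) against the mean CPM of ctrl mice on a log scale, for all tested genes (grey) and the 8 imprinted genes tested (coloured). Mest lies above nearly all genes of its level in both panels, at 43.1% and 62.9%, while Plagl1 does so only among ctrl mice, at 41.9%; a gene with 0 reads in ctrl mice is not drawn.

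Reads were assigned to transcripts of both Mest starts in every mouse. The counts do not show how many of these reads reached the first exon. Mest-211 (12 exons, 2561 bases) and Mest-202 (13 exons, 2665 bases) begin in the downstream window, and Mest-210 (12 exons, 2383 bases) begins at 30733506 in the upstream window. The upstream transcript took 17.8%, 19.7% and 28.7% of Mest reads in cold 7, 12 and 16, against 22.3%, 18.6% and 19.5% in ctrl 5, 6 and 10. The groups overlapped, with 22.1 ± 5.80% in cold mice and 20.1 ± 1.93% in ctrl mice (SD, n = 3 each). The share thus stayed within a narrow range in ctrl mice although the total of Mest differed by 3.04 times between them.

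Mest-211 took 63.9% of Mest reads in cold 7, 59.8% in cold 12 and 40.4% in cold 16, against 62.9%, 64.2% and 60.9% in ctrl 5, 6 and 10. Cold 16 stood below the 5 others, and it was above them for Mest-202, with 30.1%, against 17.8% in cold 7, 20.5% in cold 12 and 14.9% to 19.5% in ctrl mice. The library of cold 16 also had the lowest share of reads from protein-coding transcripts, 86.9%, against 89.3% to 89.7% in the others, and its part in this result was not tested. None of the 3 transcripts passed the test. The log2 fold change of Mest-211 was -0.55 ± 0.35 (SE, adjusted p = 0.838). Without cold 16 it was -0.26 (adjusted p = 0.925), and without ctrl 6 it was 0.14 (adjusted p = 1.0). Over all such omissions of 1 mouse the range was -1.11 to 0.14, with a lowest adjusted p of 0.0695. Mest-210 had -0.35 ± 0.29 (adjusted p = 0.893) and Mest-202 had -0.15 ± 0.32 (adjusted p = 0.966), and without ctrl 6 they had 0.23 and 0.51. Copg2, which encodes a coat protein of vesicles and is imprinted in some mouse tissues, runs on the opposite strand and shares 912 bases with Mest at the 3′ end. It had 73.5 ± 17.3 CPM in cold mice and 84.2 ± 30.8 CPM in ctrl mice, and whether counting used the strand is not known. Ctrl 6 was its highest ctrl mouse, as for Mest, with 70.4, 119 and 62.7 CPM in ctrl 5, 6 and 10. Its highest cold mouse was cold 16, with 81.3, 53.7 and 85.6 CPM in cold 7, 12 and 16.

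**Figure D4:**
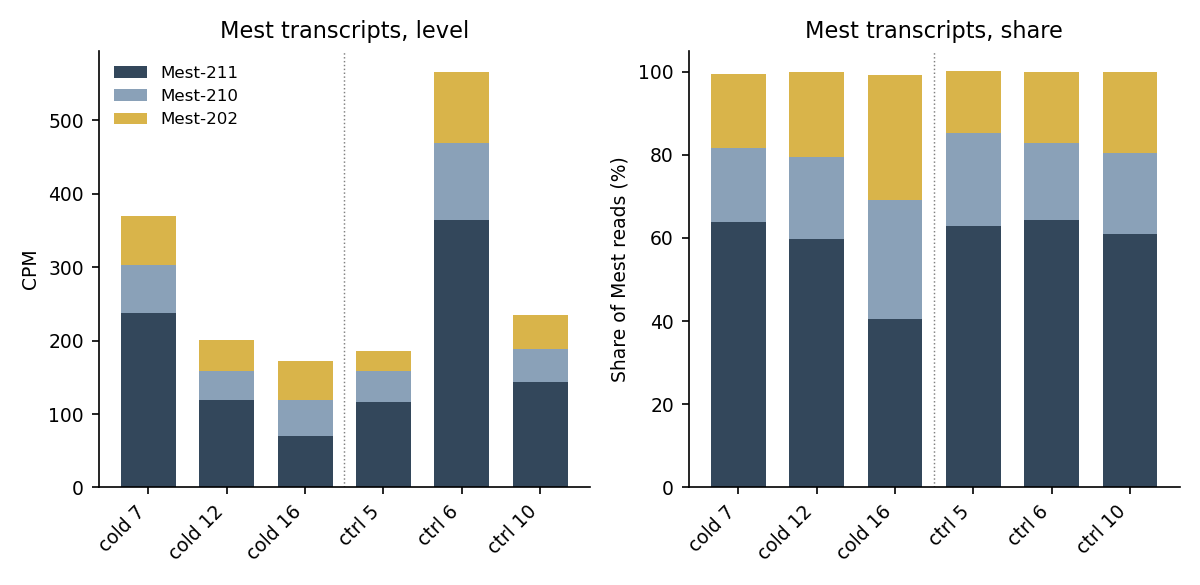
CPM (left) and share of Mest reads (right) of the 3 Mest transcripts with at least 10 reads, stacked per mouse, cold mice left of the dotted line and ctrl mice right of it. The total differs between mice of the same group, while the share of the upstream transcript Mest-210 stays between 17.8% and 28.7%, and Mest-211 has its lowest share, 40.4%, in cold 16.

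The zinc finger genes Plagl1 and Peg3, both paternally expressed, encode transcription factors. PLAGL1 (ZAC1) halts the cell cycle and in mice acts on other imprinted genes. Plagl1 (chr10:13060504-13131694, plus strand) had 44.1, 46.1 and 48.5 CPM in cold 7, 12 and 16, against 43.7, 48.5 and 90 CPM in ctrl 5, 6 and 10. Ctrl 10 alone stood high, and the 5 other mice lay within 43.7 to 48.5 CPM. The log2 fold change was -0.37 ± 0.24 (SE; adjusted p = 0.768), and without ctrl 10 it was 0.02 (adjusted p = 0.995). The CV was 41.9% among ctrl mice, and 99.2% of the 2248 genes of like level had a lower one. Among cold mice it was 4.78%, on 32, 55 and 38 reads. Plagl1-202 gave 87.7% of the reads, and its CPM of 41.3, 41.0 and 40.8 in cold mice against 34.1, 43.2 and 80.2 in ctrl mice shows the same high mouse, ctrl 10 (log2 fold change -0.34 ± 0.27, adjusted p = 0.880; 0.10 without ctrl 10). Plagl1-203 and Plagl1-201, with 20 and 19 reads in all, were not tested.

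Peg3 (chr7:6703892-6730431, minus strand), known in mice for effects on growth and maternal care, had 41.4, 46.1 and 26.8 CPM in cold 7, 12 and 16, against 22.4, 40.3 and 31.8 CPM in ctrl 5, 6 and 10. Cold 16 lay among the ctrl mice, and ctrl 6 lay among the cold mice. Its log2 fold change was 0.29 ± 0.25 (SE; adjusted p = 0.846), and it lay between 0.10 (without cold 12) and 0.52 (without ctrl 6) when 1 mouse was left out. Peg3-201 gave 99.1% of its reads (log2 fold change 0.29 ± 0.26, adjusted p = 0.896). Usp29, an imprinted gene that starts 147 bases from Peg3 on the other strand, had 2 reads in all 6 mice.

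Cdkn1c and Ndn are known as brakes on proliferation. Cdkn1c (chr7:143458339-143461050, minus strand) encodes p57, an inhibitor of cyclin-dependent kinases. It had 48.3, 47.0 and 46.0 CPM in cold 7, 12 and 16, against 34.1, 50 and 43.2 CPM in ctrl 5, 6 and 10. The cold mice lay within the range of the ctrl mice, on 35, 56 and 36 reads. On the log2 scale the difference was 0.15 ± 0.20 (SE; adjusted p = 0.917). It was 0.64 with the X1 files alone and -0.39 with the X2 files alone (adjusted p = 0.512 and 0.861), the 2 files deposited for each mouse, and 0.02 without ctrl 5 to 0.29 without ctrl 6. Its main transcripts, Cdkn1c-202 and Cdkn1c-201, have 4 exons each. Cdkn1c-202 took 37.1%, 66.1% and 61.1% of Cdkn1c reads in cold 7, 12 and 16, against 62.5%, 49.3% and 59.2% in ctrl 5, 6 and 10, and the groups overlapped.

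Ndn (chr7:62346569-62350262, plus strand), whose product necdin holds back proliferation and differentiation of adipocyte progenitors in mice, has a single transcript of 1 exon. It had 20.7, 27.7 and 29.4 CPM in cold 7, 12 and 16, against 30.9, 31.4 and 22.1 CPM in ctrl 5, 6 and 10. Each group held 1 low mouse, cold 7 and ctrl 10, and the ranges overlapped. Ndn had a log2 fold change of -0.08 ± 0.25 (SE; adjusted p = 0.967), and 0.02 without cold 7 or without ctrl 6. The non-coding gene Gm32061 on the other strand spans Ndn and had 3 reads in all.

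Dlk1 (chr12:109452823-109463336, plus strand) encodes Pref-1, a membrane protein of preadipocytes that holds back fat cell formation. It had 0, 3 and 4 reads in cold 7, 12 and 16, against 1, 5 and 2 reads in ctrl 5, 6 and 10. That is 0, 2.52 and 5.11 CPM in cold mice, against 1.07, 3.73 and 1.77 CPM in ctrl mice. The 0 in cold 7 allows up to 4.14 CPM (3 reads), and the groups overlapped. The pooled 7 reads of cold mice and 8 reads of ctrl mice give a ratio of 1.10, with an exact 95% interval of 0.341 to 3.49 that covers counting error only. Dlk1-205, its transcript with the most reads, had 10 of the 15. Meg3, the maternally expressed non-coding RNA of the same imprinted domain, is among the other imprinted genes tested and had 49.5 ± 13.3 CPM in cold mice and 56.7 ± 20.9 CPM in ctrl mice (log2 fold change -0.16 ± 0.25, adjusted p = 0.929).

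Among the genes of growth factor signalling, Igf2 (chr7:142650766-142666816, minus strand) encodes insulin-like growth factor 2. It had 6, 10 and 16 reads in cold 7, 12 and 16, against 11, 9 and 9 reads in ctrl 5, 6 and 10, and so was not tested. In CPM these were 8.27, 8.39 and 20.4 in cold mice, against 11.7, 6.72 and 7.94 in ctrl mice. Cold 16 stood above the others, and the 2 other cold mice lay within the ctrl range. The pooled reads, 32 in cold mice and 29 in ctrl mice, give a ratio of 1.39 with an exact 95% interval of 0.816 to 2.39 that includes 1. Igf2-201, which begins at 142657496, gave 65.6% of the reads, Igf2-205 16.4%, and Igf2-204 had 9 reads. In the mouse, H19 is the maternally expressed non-coding neighbour of Igf2, and it had 0 reads in all 6 libraries.

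Grb10 (chr11:11930508-12038683, minus strand) encodes an adaptor that binds the insulin and IGF1 receptors and dampens their signal. It had 19.3, 29.4 and 35.8 CPM in cold 7, 12 and 16, against 27.7, 31.4 and 23.8 CPM in ctrl 5, 6 and 10. The ctrl mice lay inside the wider range of the cold mice. Grb10 had a log2 fold change of 0.06 ± 0.25 (SE; adjusted p = 0.979), and -0.11 without cold 16 or -0.04 without ctrl 10. Over all mice, Grb10-201 gave 52.3% and Grb10-203 47.7% of the reads, and they begin at the starts shown above. Grb10-201, from the CG-rich upstream start, took 57.1%, 40.0% and 53.6% of reads in cold 7, 12 and 16, against 57.7%, 59.5% and 48.1% in ctrl 5, 6 and 10. Grb10-203, from the downstream start, took the rest. The share of Grb10-201 was 50.2 ± 9.04% in cold mice and 55.1 ± 6.11% in ctrl mice (SD, n = 3 each), on 8 to 25 reads a mouse. As for Mest, how many reads reached the first exon is not known. Grb10-201 had a log2 fold change of -0.14 ± 0.34 (adjusted p = 0.973) and Grb10-203 one of 0.28 ± 0.34 (adjusted p = 0.937).

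Sgce (chr6:4674350-4747207, minus strand) encodes epsilon-sarcoglycan, a paternally expressed membrane protein related to the dystrophin complex. Its highest mouse held 1.31 times its lowest, the smallest such ratio of the tested members, with 80.0, 75.5 and 62.6 CPM in cold 7, 12 and 16, against 82.1, 78.4 and 74.1 CPM in ctrl 5, 6 and 10. Cold 16 was lowest and the other cold mice lay within the ctrl range. Sgce had a log2 fold change of -0.08 ± 0.16 (SE; adjusted p = 0.958), and 0.02 without cold 16. Reads fell on 10 Sgce transcripts. Sgce-205 (11 exons) took 45.4% of them and Sgce-204 (12 exons) 32.8%, with log2 fold changes of -0.10 ± 0.24 (adjusted p = 0.974) and 0.06 ± 0.28 (adjusted p = 0.983). Sgce-207 with 54 reads and Sgce-201 with 20 reads were not tested. Peg10, the paternally expressed gene that starts 99 bases away on the other strand, had 16 reads in all.

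Nnat (chr2:157560078-157562522, plus strand) encodes neuronatin, a small paternally expressed protein of the endoplasmic reticulum membrane known from calcium handling and from adipocyte differentiation. It supplied 67.6% to 86.0% of all reads of the 10 genes in a library. It had 2183, 2306 and 1937 CPM in cold 7, 12 and 16, against 2701, 1787 and 2986 CPM in ctrl 5, 6 and 10. The cold mice lay between ctrl 6, the lowest mouse, and the other ctrl mice. The log2 fold change was -0.19 ± 0.16 (SE; adjusted p = 0.838), and it was -0.39 without ctrl 6 and -0.03 without ctrl 10. Among ctrl mice, ctrl 6 was also lowest in the summed level of 12 mesothelial markers, with 208 CPM against 453 in ctrl 5 and 506 in ctrl 10. The same held for 16 progenitor and fibroblast markers, with 2564 CPM in ctrl 6 against 3738 in ctrl 5 and 3599.8 in ctrl 10. It also held for 11 macrophage markers, with 1355 CPM in ctrl 6 against 1736 in ctrl 5 and 1513 in ctrl 10. For 15 markers of mature adipocytes ctrl 6 was highest instead, with 70139.7 CPM against 63178 in ctrl 5 and 69067 in ctrl 10. The low sums of ctrl 6 were thus not particular to mesothelium and progenitors. In cold mice, where Nnat was highest in cold 12, the order was another. The mesothelial sum was 408, 293 and 317 CPM in cold 7, 12 and 16, and the progenitor and fibroblast sum 4084, 3071 and 2937 CPM. The part of cell content in the Nnat level was not tested. Blcap, a gene on the opposite strand, contains Nnat whole and had 97.5 ± 6.00 CPM in cold mice and 113 ± 11.6 CPM in ctrl mice (log2 fold change -0.18 ± 0.15, adjusted p = 0.838). As for Mest and Copg2, whether counting used the strand is not known.

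Nnat gave the lowest p-values among the transcripts of the 10 genes, and they came from its 2 retained-intron transcripts. Across the 12325 transcripts tested 47 were called, or 0.381% (0.325% higher and 0.0568% lower in cold mice), and of the 19 tested transcripts of the 10 genes 0 were called by edgeR, DESeq2 or limma-voom. At an unadjusted edgeR p under 0.05 there were 2 of 19, against 6.87% of all transcripts. Nnat-203 (2 exons, 599 bases) had 34.4, 30.1 and 23.0 CPM in cold 7, 12 and 16, against 54.3, 40.3 and 56.4 CPM in ctrl 5, 6 and 10. All cold mice lay below all ctrl mice, which was so for 1 of the 19 transcripts, against 6.99% of all transcripts tested with cold mice lower, 5.57% with cold mice higher and 12.6% in either direction. Its log2 fold change was -0.75 ± 0.23 (SE; unadjusted p = 0.00451, adjusted p = 0.350). Nnat-204 (3 exons, 1448 bases) had 325, 353 and 229.6 CPM in cold mice, against 531, 338 and 505 CPM in ctrl mice, with ctrl 6 among the cold mice. Its log2 fold change was -0.56 ± 0.18 (SE; unadjusted p = 0.00619, adjusted p = 0.400).

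As for Mest, the counts do not show how many Nnat reads reached the first exon, and Nnat-203 begins inside the gene. As shares of Nnat reads, both retained-intron transcripts separated the groups. Together they made up 16.5%, 16.7% and 13.1% of Nnat reads in cold 7, 12 and 16, against 21.7%, 21.2% and 18.8% in ctrl 5, 6 and 10. Every cold mouse lay below every ctrl mouse, with means of 15.4 ± 2.03% in cold mice and 20.6 ± 1.54% in ctrl mice (SD, n = 3 each). Groups separated in this direction in 4.82% of all transcript shares tested. The fully spliced Nnat-202 (3 exons, 1213 bases) took 71.9%, 72.7% and 74.5% in cold mice, against 67.3%, 69.2% and 69.9% in ctrl mice. Groups separated in that direction in 4.96% of all shares, and shares of 1 gene are not independent, since they sum to a whole. Retained-intron reads of all other genes made up 3.21%, 3.52% and 4.35% of reads in cold 7, 12 and 16, against 3.53%, 3.34% and 3.57% in ctrl 5, 6 and 10, where the groups overlapped. These are shares of all reads of a library, not of the reads of each gene, so they are not a matched comparison for the Nnat shares.

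The shift in Nnat shares did not pass the test of transcript usage, which asks whether the transcripts of a gene change relative to each other. With edgeR's diffSpliceDGE and the Simes p per gene, 0 of 2624 genes were called (0.0%), and 25, or 0.953%, had an unadjusted p under 0.05. Nnat, with 7 tested transcripts, had an unadjusted p of 0.277, and the other 4 members that could be tested, Mest, Cdkn1c, Sgce and Grb10, had 0.948, 0.731, 0.827 and 0.575. All 5 had an adjusted p of 1.0. The remaining tested Nnat transcripts, Nnat-205, Nnat-210, Nnat-208 and Nnat-207, had log2 fold changes between -0.23 and 0.29 with adjusted p from 0.913 to 0.997. Nnat-209, Nnat-206 and Nnat-201 had 16 to 21 reads and were not tested.

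**Figure D5:**
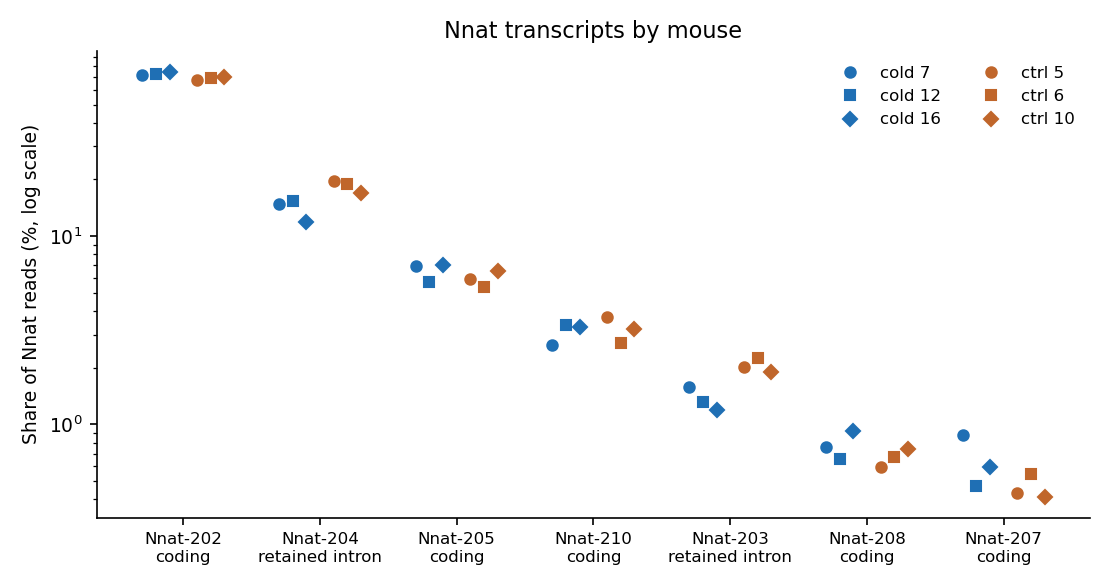
Share of Nnat reads, on a log scale, for the 7 tested Nnat transcripts in every mouse, cold mice to the left of ctrl mice. All cold mice lie below all ctrl mice for the retained-intron transcripts Nnat-204 and Nnat-203 and above them for the spliced Nnat-202, and the groups overlap for the other 4.

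Of 65 further imprinted genes, 57 had reads and 26 were tested, and 0 passed the threshold. The count above 0 was 12 and that below 0 was 14, with a median log2 fold change of -0.04, against 0.01 for all genes. The 6 with the smallest p were Pon3, Cd81, Slc22a3, Tssc4, Blcap and Ppp1r9a, all with a negative log2 fold change between -0.47 and -0.18. The counts do not show whether these genes are imprinted in this fat. Pon3, which encodes a lactonase and lies in the imprinted cluster of Sgce and Peg10, had 89.6, 93.9 and 67.7 CPM in cold mice, against 121, 103 and 135 CPM in ctrl mice. Its log2 fold change was -0.47 ± 0.17 (SE; adjusted p = 0.361). Of the 26 tested, only Pon3, Tssc4 and Blcap had groups that did not overlap, each with cold mice lower. Over all genes tested, groups did not overlap in 13.7%, and in 7.7% with cold mice lower. Those with 0 reads were H19, Calcr, Magel2, Snurf, Ins2, Nespas, Kcnk9 and Cdh15.

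The genes that work beside the 10 members were also short of the threshold, in lists that include the member itself. Apart from Igf2r, the non-members named from these lists are those with the smallest p in each. Groups did not overlap in 13.7% of all genes tested. Of 12 tested genes of the list built around Mest and fat pad expansion, 0 were called, 5 above 0 and 7 below. Lep, the hormone leptin of fat cells, had 499, 689 and 866 CPM in cold mice, against 417, 488 and 407 CPM in ctrl mice, all cold mice being above all ctrl mice. Its log2 fold change was 0.67 ± 0.16 (SE; adjusted p = 0.0628). Leaving out 1 mouse gave 0.48 without cold 16 to 0.83 without cold 7, with adjusted p from 0.00117 (without cold 7) to 0.283 (without cold 12), and DESeq2 gave an adjusted p of 0.0287. Cav1, the caveolin of the adipocyte membrane, had 2574, 2238 and 1871 CPM in cold mice, against 2973, 3297 and 3040.3 CPM in ctrl mice. All cold mice were lower, with a log2 fold change of -0.45 ± 0.14 (SE; adjusted p = 0.222). Leaving out 1 mouse gave -0.59 without cold 7 to -0.33 without cold 16, with adjusted p from 0.0439 (without cold 7) to 0.474 (without cold 12).

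Of 11 tested genes around Dlk1 and the control of progenitors 0 were called. Sox9, a transcription factor that DLK1 raises in mouse preadipocytes, had 19.3, 67.9 and 61.3 CPM in cold mice, against 22.4, 17.9 and 26.5 CPM in ctrl mice. Cold 12 and cold 16 were high and cold 7 lay among the ctrl mice, and the log2 fold change was 1.24 ± 0.32 (SE; adjusted p = 0.0988). Leaving out 1 mouse gave 0.91 without cold 12 (adjusted p = 0.565) to 1.56 without cold 7 (adjusted p = 9.83e-05). Epcam, a marker of epithelium, was also highest in cold 12 and 16, with 12.4, 45.3 and 33.2 CPM in cold 7, 12 and 16. In ctrl mice it had 4.27, 0 and 0 CPM. The summed level of 20 epididymal epithelium markers ran otherwise, with 423, 113 and 103 CPM in cold 7, 12 and 16. Crisp1 made up 306 of the 423 CPM in cold 7. The part of epithelium in the Sox9 result was not tested. Cebpd, an early transcription factor of adipogenesis, had 32.6 ± 4.39 CPM in cold mice and 43.7 ± 5.58 CPM in ctrl mice (SD, n = 3 each; adjusted p = 0.655).

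Of 17 tested inhibitors of cyclin-dependent kinases and their partners 0 were called, 9 above 0 and 8 below. Cdkn1a, the p21 relative of Cdkn1c, had 38.6, 43.6 and 24.3 CPM in cold mice, against 10.7, 15.7 and 24.7 CPM in ctrl mice. Cold 16 and ctrl 10 were alike and the other cold mice lay above all ctrl mice. Its log2 fold change was 1.09 ± 0.30 (SE; adjusted p = 0.143). Leaving out 1 mouse gave 0.87 without ctrl 5 to 1.44 without ctrl 10, with adjusted p from 0.0401 (without cold 16) to 0.565 (without cold 12). Cdk6, a kinase of the G1 phase, had 13.2 ± 1.76 CPM in cold mice and 8.38 ± 5.20 CPM in ctrl mice (adjusted p = 0.752).

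In the insulin and IGF list 0 of 21 tested genes were called, 12 above 0 and 9 below. Igf1, the relative of Igf2, had 241, 260 and 239 CPM in cold mice, against 282, 355 and 327 CPM in ctrl mice, without overlap (log2 fold change -0.36 ± 0.13, adjusted p = 0.406). Igfbp4, which binds IGFs outside the cell, had 829, 659 and 673 CPM in cold mice, against 639.9, 578 and 527 CPM in ctrl mice, also without overlap (log2 fold change 0.34 ± 0.13, adjusted p = 0.460). The receptor that clears IGF2, Igf2r, is itself imprinted in the mouse and had 206 ± 17.5 CPM in cold mice and 208 ± 15.2 CPM in ctrl mice (adjusted p = 0.992).

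For Sgce, 14 genes of the sarcoglycan and dystrophin complex were tested, 0 called, with 3 above 0, 11 below and a median of -0.12. Utrn, the dystrophin relative utrophin, had 177 ± 32.8 CPM in cold mice and 216 ± 23.4 CPM in ctrl mice (adjusted p = 0.729), and Sntb2, a syntrophin, had 31.0 ± 5.40 CPM in cold mice and 40.4 ± 10.4 CPM in ctrl mice (adjusted p = 0.782). Of 8 tested partners or relatives of PLAGL1 0 were called. Trim28, the corepressor that guards imprints, had 53.9 ± 8.65 CPM in cold mice and 42.7 ± 11.0 CPM in ctrl mice (adjusted p = 0.773), and Socs3, an inhibitor of cytokine signalling, had 9.98 ± 0.293 CPM in cold mice and 13.2 ± 3.89 CPM in ctrl mice (adjusted p = 0.874). Of 7 tested genes of the necdin family and its partners 0 were called. Nsmce3, a family member in the SMC5/6 complex, had 17.9, 20.1 and 19.2 CPM in cold mice, against 28.8, 36.6 and 29.1 CPM in ctrl mice, without overlap (log2 fold change -0.70 ± 0.25, adjusted p = 0.357). Mageh1, another member, had 15.1 ± 3.73 CPM in cold mice and 18.7 ± 2.66 CPM in ctrl mice (adjusted p = 0.876).

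The genes most like each member over the 6 mice were found by the mean absolute difference of log2 CPM, each gene centred on its own mean, among 3283 genes with at least 50 CPM on average. This difference grows with the spread of the member, so its size cannot be compared between members. Nearest to Mest were Ctcflos, at a difference of 0.29, and Fmr1 and Lgals3, at 0.30 each. Lgals3 had 319.9, 187 and 161 CPM in cold 7, 12 and 16, against 144, 240.4 and 219.7 CPM in ctrl 5, 6 and 10, with cold 7 and ctrl 6 the highest of their groups as for Mest. Nearest to Sgce were Btf3 at 0.02, and Xrn2 and the imprinted Gnas at 0.03. Plagl1 was nearest to Slc1a3, Castor1 and Jag1, at 0.13 each, and Jag1 had its highest level, 102 CPM, in ctrl 10 as Plagl1 did. Nnat was nearest to Xbp1 at 0.07 and to Steap4 and Crls1 at 0.08. Cdkn1c was nearest to Sod2 at 0.06 and to Atf5 and Emc7 at 0.07, Grb10 to Epn2 at 0.04 and to Dcaf6 and Tob2 at 0.05, Ndn to Tecpr1 and Fopnl at 0.05 and to Ddx6 at 0.06, and Peg3 to Dot1l at 0.11 and to Naxe and Cisd2 at 0.12. With 6 points per gene and 3283 candidates, a small difference of this kind is a description only.

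The libraries held 726283 to 1194134 reads in cold mice and 939107 to 1341592 reads in ctrl mice. The 15 markers of mature adipocytes were all present, summing to 64059.9 to 69370.2 CPM in cold mice and 63178 to 70139.7 CPM in ctrl mice, and 1 of them, the lipase Pnpla2, rose. Of 20 markers of epididymal epithelium 15 had reads, summing to 103 to 423 CPM in cold mice and 14.9 to 21.3 CPM in ctrl mice. Only Epcam and Cldn7 passed the filter on low counts and were tested. Both were called higher in cold mice, with 4 reads each in ctrl mice. They passed the filter only through the cold mice, so a call in the other direction was not possible. Crisp1 had 225 reads, 222 of them in cold 7, and did not pass the filter. The secretory marker Crisp1 made up 306 of the 423 CPM in cold 7, where Wfdc15b had 52.4 CPM, and had at most 2.55 CPM in any other mouse. Lcn9, Lcn10, Defb48, Spint4 and Gpx5 were at 0, and Krt7 had 9.65, 5.03 and 2.55 CPM in cold mice, against 7.47, 8.21 and 12.4 CPM in ctrl mice. Of 12 mesothelial markers 8 were tested, 3 above 0 and 5 below, and the sum was 293 to 408 CPM in cold mice and 208 to 506 CPM in ctrl mice. Those past the threshold were the keratins Krt8 and Krt18, which other epithelia also make. Both were called higher in cold mice, with 101 and 90 reads there, against 14 and 17 reads in ctrl mice. Like Epcam and Cldn7, they passed the filter only through the cold mice. Upk3b and Gpm6a had log2 fold changes of -0.87 and -0.75 (adjusted p = 0.557 and 0.544). Lrrn4, too low to test, had 2.76, 3.35 and 2.55 CPM in cold mice, against 19.2, 6.72 and 17.7 CPM in ctrl mice. Of 16 progenitor and fibroblast markers 1 rose (Mgp), with sums of 2937 to 4084 CPM in cold mice and 2564 to 3738 CPM in ctrl mice. Of the markers tested, 0 of 12 for endothelium, 0 of 8 for smooth muscle, 0 of 11 for macrophages, 0 of 1 for nerve and 0 of 2 for beige and brown fat were called. Some epithelial markers, among them Epcam, Cldn7, Krt8 and Krt18, were higher in cold mice. Others were not, such as Krt7, or were high in cold 7 alone, such as Crisp1. The part of epithelium in the levels of the imprinted genes was not tested.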

How the data were processed

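Poly-A RNA of epididymal fat, 100 ng per library, was read as direct cDNA, per the labels' protocols. Counts of reads per transcript, not normalized, were deposited by the authors in 2 files (X1 and X2) for each of 6 mice. Per the submitters' processing notes, minimap2 was used with the GRCm38 genome. Its version, the counting tool and whether strand was used are not stated in the sources at hand. What separates X1 and X2 is not stated. Their counts differed by about the sampling noise (chi-square per degree of freedom of 1.018 to 1.064 over transcripts with at least 20 reads), so they were summed and counted as 1 sample.

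Of 61729 transcript identifiers, 61434 matched GENCODE M21 with the same version and 61538 with the version ignored. The unmatched 191 held 0.139% to 0.165% of reads and entered only the transcript tests. Transcripts were summed to genes.

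Tests used edgeR 4.0.16 in R 4.3.3 with TMM normalization and filterByExpr (minimum count 10). The SE of a log2 fold change was derived from the F statistic. DESeq2 1.42.0, limma 3.58.1 (voom), other size factors, filters, single files and leaving out each mouse were tried as alternatives. The tests were first run on simulated data. Intervals of pooled ratios are exact conditional binomial intervals, and floors (3 reads) and intervals cover counting error only.

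The members and gene lists were chosen with earlier results of these data known. Named are all members with each transcript of at least 10 reads, the 6 other imprinted genes and up to 2 genes of each pathway list with the smallest p, the 3 genes most like each member, and genes beside a member. Meg3, Igf2r and H19 were named for their tie to a member after their values were seen, as were the genes listed at 0.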

Additional observations from a re-analysis of the deposited data

How the results depend on the processing

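No result for the 10 genes passed the threshold under any alternative run: the counts of member genes, member transcripts and member genes with changed usage stayed at 0 in all. Over all genes, 64 were called, against 371 without the filter on low counts and 38 with the X2 files alone, and leaving out each mouse gave 35 (without cold 12) to 199 (without cold 7). Over all transcripts, 47 were called, against 260 without the filter, 30 with X1 alone and 26 with X2 alone, and 26 to 162 without one mouse. For usage the count of 0 became 1 without the filter, and 0 to 1 without one mouse. No paired analysis was possible because the groups share no mouse numbers.

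Signs of small log2 fold changes were not stable. Of 104 alternative values for member genes 9 changed sign, and of 240 for member transcripts 30 did, none of them past the threshold. With X2 alone, Cdkn1c was at -0.39, Cdkn1c-202 at -0.29, Sgce-204 at -0.33 and Trim28 at -0.03. With X1 alone, Grb10 was at -0.23, Cdkn1c-201 at 0.36, Nnat-208 at -0.19 and Ppp1r9a at 0.04. Without the filter, Sgce-204 was at -0.01 and Nnat-208 at -0.07, and with DESeq2 Nnat-208 was at -0.01. Leaving out each mouse gave -0.82 to 0.24 for Mest, -0.55 to 0.02 for Plagl1, -0.15 to 0.02 for Sgce, -0.11 to 0.21 for Grb10 and -0.23 to 0.02 for both Ndn and Ndn-201. For transcripts it gave -1.11 to 0.14 for Mest-211, -0.58 to 0.23 for Mest-210, -0.46 to 0.51 for Mest-202, -0.57 to 0.10 for Plagl1-202, -0.02 to 0.32 for Cdkn1c-202 and -0.35 to 0.23 for Cdkn1c-201. It also gave -0.26 to 0.05 for Sgce-205, -0.18 to 0.23 for Sgce-204, -0.30 to 0.07 for Nnat-202, -0.33 to 0.18 for Nnat-205, -0.21 to 0.28 for Nnat-208 and -0.41 to 0.04 for Grb10-201. The retained-intron transcripts kept their sign without any 1 mouse, at -0.90 to -0.62 for Nnat-203 and -0.75 to -0.40 for Nnat-204. The cause of these moves was not tested. Leaving out a mouse leaves 2 in its group. Depth limits Dlk1 and Igf2, with 15 and 61 reads in all.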
